A study of Mus musculus with 9 samples.

Results

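The genes described here are the Wnt ligands, their receptors and co-receptors, the Dishevelled adaptors, the R-spondins and the secreted Wnt antagonists of the mouse. They were picked by gene symbol and not by measured values, though earlier results of these data were known. Every gene of the GRO-seq table named Wnt, Fzd, Sfrp, Dkk, Rspo, Dvl or Kremen with a number was taken. Lrp5, Lrp6, Wif1 and Wls were added. This gave 50 of the 24505 genes in the table: 19 ligands, 10 Frizzled receptors, 4 genes each of the Sfrp, Dickkopf and R-spondin families, 3 Dishevelled genes, 2 LRP co-receptors, 2 Kremen genes, Wif1 and Wls. Global run-on sequencing (GRO-seq), an assay of the RNA that engaged polymerase is making in isolated nuclei, was done on 6 libraries of organoids (mini-guts) from mouse duodenum. The cultures were RANKL (2 libraries, cell type labelled as intestinal M cell, an epithelial cell that takes up antigens from the gut lumen), ENRI (2 libraries, labelled as enterocyte, the absorptive cell) and WENRC (2 libraries, labelled as intestinal stem cell). H3K27me3, the repressive histone mark laid down by Polycomb repressive complex PRC2, was mapped by ChIP-seq in WENRC (1 library) and in RANKL (2 libraries that the authors pooled). The sources used here do not spell out the culture names, so strain, age, doses and times cannot be given, and neither can it be said whether a medium held Wnt or R-spondin protein. The ENRI and WENRC libraries came from mouse 1 and mouse 2, and the RANKL libraries carry only a replicate number, so the p-values measure only the spread between these libraries, which for RANKL may be technical.

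Wnt proteins are lipid-bearing ligands that leave the cell with the carrier Wls and bind a Frizzled receptor together with Lrp5 or Lrp6. The bound pair recruits Dishevelled and spares beta-catenin from destruction, and beta-catenin then acts with TCF factors on target genes, while R-spondins keep Frizzled on the surface. Sfrp proteins and Wif1 bind Wnts outside the cell, and Dickkopf proteins, with Kremen, block the LRP co-receptors. In the intestinal crypt this pathway maintains stem cells; Paneth cells are a known epithelial source of Wnt3, and the underlying stroma makes several other Wnts.

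GRO-seq values are log2 values over the whole gene, normalized by the authors, and genes with few reads are drawn together on this scale, so that changes of low genes are understated. Cultures were compared with limma over all 16563 genes that reached log2 of 10 in at least 2 libraries. A gene was called at a Benjamini-Hochberg adjusted p (FDR) under 0.05. Of the 50 Wnt genes, 38 entered the test, with values between 2.94 and 12.29. The 12 that did not were Wnt1, Wnt2, Wnt3a, Wnt5a, Wnt8a, Wnt10b, Fzd10, Rspo1, Sfrp1, Sfrp2, Sfrp4 and Dkk1, with values from -1.34 to 2.99 across the 6 libraries.

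The labels of the cultures were set against marker genes. M cell markers were called higher in RANKL than in ENRI for 11 of 15 and higher than in WENRC for 11 of 15. Of this list, Gp2 and Sox8 entered the test only with the RANKL libraries counted. Stem cell markers were higher in WENRC than in ENRI for 9 of 12, but also higher in RANKL than in ENRI for 6, and RANKL against WENRC had 2 higher and 1 lower. Enterocyte markers were lower in WENRC than in ENRI for 13 of 15. RANKL also held 6 enterocyte markers above WENRC. Of 10 Paneth cell markers 4 were higher and 1 lower in RANKL than in ENRI, and again 4 higher and 1 lower than in WENRC. Goblet cell markers were higher in RANKL than in WENRC for 4 of 8, and tuft cell markers for 2 of 7. Against ENRI, 1 goblet and 3 tuft cell markers were higher. Gfi1b of the tuft cell list and Lyz2 of the Paneth cell list also entered the test only with the RANKL libraries counted. Of all tested genes, 10.4% were higher and 10.5% lower in RANKL than in ENRI, and 8.53% and 3.62% than in WENRC. In WENRC against ENRI the shares were 4.85% and 9.74%. The ENRI replicates differed more from each other (SD of the replicate difference over genes 0.699) than the WENRC (0.421) or RANKL (0.220) replicates. The header names the RANKL libraries as reads combined with a repeat sequencing, so sequencing batch and RANKL culture cannot be told apart. In organoid cultures of mixed cells, fewer cells of a type and less RNA per cell cannot be told apart either.

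To show the sequence around starts that the results below turn on, the promoters of Wnt3, Wnt4 and Fzd1 are printed, from RefSeq on GRCm38.p6 (250 bases before to 50 after the start, 5′ to 3′ on the gene's strand). Wnt3 is the ligand with the largest rise in RANKL, Wnt4 the ligand with the largest fall, and Fzd1 the receptor with the highest H3K27me3 fold over its start. Capitals mark each CG, the dinucleotide that makes up CpG islands, where Polycomb marks are often found. They lie at chr11:103773925-103774224 (Wnt3, plus strand), chr4:137277385-137277684 (Wnt4, plus strand) and chr5:4758167-4758466 (Fzd1, minus strand).
Wnt3: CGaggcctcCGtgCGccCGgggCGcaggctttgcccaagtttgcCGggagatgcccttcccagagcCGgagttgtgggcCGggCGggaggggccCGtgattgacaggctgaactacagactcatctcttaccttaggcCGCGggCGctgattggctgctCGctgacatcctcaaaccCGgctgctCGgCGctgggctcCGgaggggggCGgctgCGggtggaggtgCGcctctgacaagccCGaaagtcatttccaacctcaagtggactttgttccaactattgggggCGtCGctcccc
Wnt4: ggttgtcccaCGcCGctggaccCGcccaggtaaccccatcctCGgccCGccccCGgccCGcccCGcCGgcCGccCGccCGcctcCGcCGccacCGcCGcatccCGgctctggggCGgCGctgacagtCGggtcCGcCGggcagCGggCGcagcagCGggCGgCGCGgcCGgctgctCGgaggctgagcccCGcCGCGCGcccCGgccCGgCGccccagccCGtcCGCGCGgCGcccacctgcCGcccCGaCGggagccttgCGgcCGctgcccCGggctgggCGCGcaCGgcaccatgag
Fzd1: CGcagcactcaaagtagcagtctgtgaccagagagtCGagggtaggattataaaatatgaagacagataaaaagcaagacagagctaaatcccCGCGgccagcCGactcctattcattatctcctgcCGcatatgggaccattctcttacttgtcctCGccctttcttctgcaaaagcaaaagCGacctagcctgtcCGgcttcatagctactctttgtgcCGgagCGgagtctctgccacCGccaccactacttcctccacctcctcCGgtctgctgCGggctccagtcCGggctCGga
The Wnt3 promoter held 24 CG pairs, a number that 20% of all 32851 RefSeq promoters of this length reached. The Wnt4 promoter held 51, which 0.7% reached, and the Fzd1 promoter 16, which 33.0% reached. The 36 promoters found for 33 of the 50 genes had a median of 26.5 CG pairs, against 7.0 for all promoters. Of the TCF/LEF core motif, only CTTTGAT and CTTTGAA were searched, on either strand. One or the other was in 3 of the 36 (8.3%) and in 8.7% of all promoters, and in none of those printed. The printed Wnt3 promoter holds CTTTGTT, which was not searched, so the absence of TCF sites cannot be read from this search.

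The comparison of RANKL with ENRI asked how M cell cultures differ from enterocyte cultures. Wnt genes moved both ways: Wnt3, Wnt10a, Fzd2 and Lrp6 were higher in RANKL, and Wnt4, Wnt16, Fzd1, Fzd3, Fzd4, Fzd5 and Fzd8 were lower. That is 11 of 38 tested Wnt genes (28.9%), against 20.9% of all tested genes. The median change of the 38 was 0.07, against 0.00 over all genes, and the median size of change was 0.48, against 0.38. The authors' deposited table has 10 of the 38 at an adjusted p under 0.05, 9 of them among the 11 and with the same sign and the other Wnt7b, against 19.6% of all genes. In a fit of the 4 RANKL and ENRI libraries alone, 5 were called (Wnt3, Wnt4, Wnt10a, Wnt16 and Fzd8), against 11.6% of all genes. The libraries of the pair of cultures did not overlap for 13 Wnt genes higher and 12 lower in RANKL, against 32.4% and 32.3% of all genes. Without RANKL 1 or without RANKL 2, limma called 0 of 38, with 9 at an unadjusted p under 0.05 in each case.

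The comparison of RANKL with WENRC, which shares the RANKL libraries, set M cell against stem cell cultures. Lrp6, Wnt3, Wnt10a and Wnt6 were higher in RANKL and Fzd8 and Fzd3 lower, 6 of 38 (15.8%) against 12.1% of all genes. The median change was 0.00, against -0.01 over all genes. The authors' deposited table has 13 of the 38 at an adjusted p under 0.05, the 6 among them with the same sign, against 27.8% of all genes. In a fit of these 4 libraries alone 13 were called, the 6 among them, against 31.4% of all genes. Libraries did not overlap for 12 Wnt genes in each direction, against 34.1% of all genes higher and 34.5% lower. Centring libraries on their upper quartile moved the median of all genes to -0.12 and kept Lrp6 and Fzd8 of the 6, and the calls over all genes went from 70.2% to 53.3% higher in RANKL. Leaving out RANKL 1, RANKL 2, WENRC 1 or WENRC 2 left 0 limma calls, with 10, 7, 8 and 8 genes at an unadjusted p under 0.05.

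The comparison of WENRC with ENRI set stem cell against enterocyte cultures. Wnt4 and Fzd5 were lower in WENRC, and no Wnt gene was called higher. These are 2 of 38 (5.26%), against 14.6% of all genes, and the authors' deposited table has the same 2, against 12.5% of all genes. The labels give each mouse a library of both cultures. With the mouse number of ENRI and WENRC as a block in the fit of 6 libraries, limma called 5 Wnt genes, against 21.4% of all genes: Wnt16 and Lrp6 joined as lower and Wnt3 as higher in WENRC. With only the 4 libraries compared, limma called 0, with 6 at an unadjusted p under 0.05, and 0.0% of all genes. With these 4 libraries and the block it again called 0, with 6 at an unadjusted p under 0.05, and 0.749% of all genes, so that the 5 limma calls rest on a fit that takes part of its spread from RANKL. Libraries did not overlap for 6 Wnt genes higher and 9 lower in WENRC, against 29.3% and 29.2% of all genes. The fit of all libraries gave 0 without RANKL 1 or RANKL 2 (6 at an unadjusted p under 0.05 each), and 0 without WENRC 1 (5) or WENRC 2 (4).

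**Figure D1:**
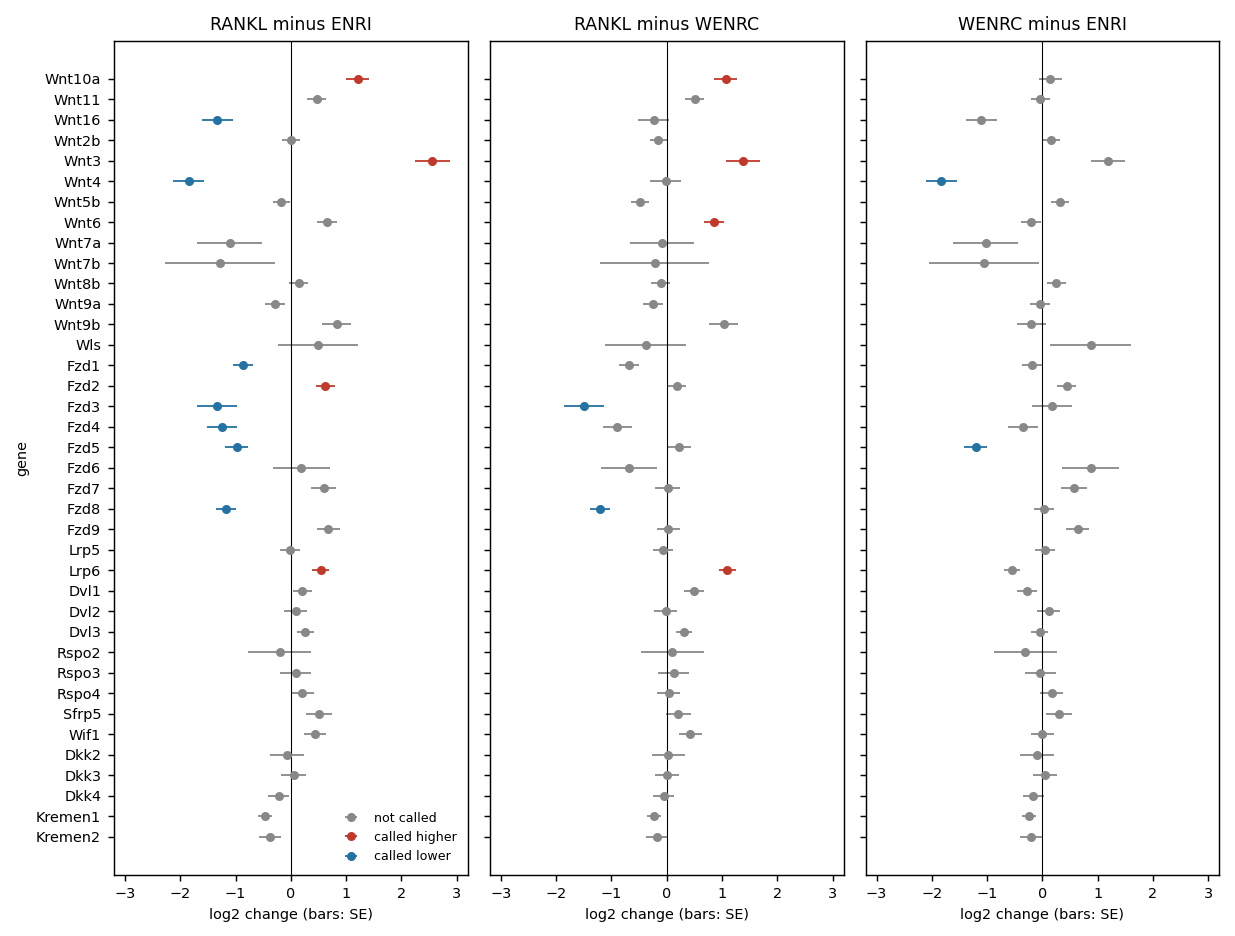
Log2 change of the 38 tested Wnt genes (rows, by role) in each of the 3 comparisons, with bars of 1 SE from limma; red points were called higher and blue points called lower in the first-named culture. The widest bars belong to Wnt7b, Wls, Wnt7a, Rspo2 and Fzd6, and the largest change is that of Wnt3 in RANKL minus ENRI (2.56).

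Among the ligands, Wnt3, the Wnt of Paneth cells and the crypt, had the largest change. Its values were 8.55 and 8.26 in RANKL, 5.41 and 6.27 in ENRI, and 6.90 and 7.15 in WENRC. The 3 cultures did not overlap, with RANKL highest and ENRI lowest. The change was 2.56 over ENRI (SE 0.31, limma FDR 0.00569, from 0.000225 to 0.0724 over its alternatives) and 1.38 over WENRC (SE 0.31, limma FDR 0.0425, from 0.00111 to 0.264). WENRC lay 1.18 above ENRI, a difference that the main fit did not call (limma FDR 0.0575). With the mouse number as a block in the fit of 6 libraries it was called (limma FDR 0.0232), as it was with a filter at log2 of 50. With the block in the 4 libraries alone it was not called. This difference was 1.49 in mouse 1 and 0.87 in mouse 2. The mean value of the 10 Paneth cell markers was also highest in RANKL, at 7.49 and 7.50. It was 6.0 and 6.59 in ENRI, and 6.06 and 6.47 in WENRC. Between WENRC and ENRI 1 of these markers was called higher and 1 lower in WENRC, with a median change of 0.06. In RANKL 4 of them were higher and 1 lower than in ENRI, and 4 higher and 1 lower than in WENRC. The part of Paneth cells in the Wnt3 result was not tested.

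Wnt10a, a ligand known from skin and teeth, and Wnt6 are neighbours on chromosome 1 (74838593 to 74850749 and 74818466 to 74831893, mm9). Wnt10a had 4.66 and 4.66 in RANKL, 3.44 and 3.46 in ENRI, and 3.35 and 3.82 in WENRC. Both RANKL libraries stood above the other 4, which overlapped each other. The change was 1.21 over ENRI (SE 0.21, limma FDR 0.0149) and 1.07 over WENRC (SE 0.21, limma FDR 0.0280). The authors' deposited table gives larger changes for this low gene, 4.09 and 3.11. Wnt6 had 5.57 and 5.58 in RANKL, 4.90 and 4.93 in ENRI, and 4.60 and 4.83 in WENRC. Here too the RANKL libraries were the highest pair. Its rise of 0.86 over WENRC was called (SE 0.18, limma FDR 0.0362) and its 0.66 over ENRI was not (limma FDR 0.0538).

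Wnt9b, which lies near Wnt3 on chromosome 11 (103588677 to 103611135, mm9), had 5.48 and 5.45 in RANKL, 4.31 and 4.96 in ENRI, and 4.49 and 4.39 in WENRC. Its RANKL libraries were above all others, yet the changes of 0.83 over ENRI and 1.03 over WENRC were not called (limma FDR 0.0693 and 0.0544). With only the RANKL and WENRC libraries in the fit the second was called (limma FDR 0.00536). The authors' deposited table also has Wnt9b higher in RANKL than in WENRC (change 2.43, adjusted p 0.00261). Wnt11, a ligand of beta-catenin-independent signalling, had 4.0 and 4.16 in RANKL against 3.49 to 3.65 in the other 4 libraries, and was not called in these comparisons.

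Wnt4, known from kidney and reproductive tract development, went the other way. Its values were 9.28 and 9.0 in ENRI, 7.26 and 7.33 in RANKL, and 7.71 and 6.92 in WENRC. ENRI was apart from both other cultures, and the RANKL values lay between those of WENRC. The fall was 1.85 from ENRI to RANKL (change -1.85, SE 0.28, limma FDR 0.0106, from 0.00303 to 0.105 over its alternatives). From ENRI to WENRC the change was -1.83 (SE 0.28, limma FDR 0.0160, from 0.00501 to 0.0997), -1.58 in mouse 1 and -2.08 in mouse 2. Wnt16, a ligand known from bone and blood development, likewise set ENRI apart, with 7.60 and 7.43 in ENRI, 6.05 and 6.32 in RANKL, and 6.77 and 6.05 in WENRC. Its change in RANKL against ENRI was -1.33 (SE 0.28, limma FDR 0.0242), and in WENRC against ENRI it was -1.11 (limma FDR 0.0501, and 0.0248 with the mouse number as a block in the fit of 6 libraries, but not called with the block in the 4 alone). Of 15 enterocyte markers, 8 were lower in RANKL and 13 lower in WENRC than in ENRI (median changes -1.2 and -3.26). In RANKL against WENRC 6 of these markers were higher and 0 lower. There Wnt4 (change -0.02) and Wnt16 (change -0.23) were not called. The part of enterocytes in the results for these ligands was not tested.

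Other tested ligands were level or noisy. Wnt2b, a ligand of the beta-catenin branch, had 8.48 and 8.36 in RANKL, 8.28 and 8.56 in ENRI, and 8.62 and 8.52 in WENRC, with ENRI overlapping both other cultures and WENRC just above RANKL. Wnt5b, of the beta-catenin-independent branch, had 8.60 and 8.46 in RANKL, 8.80 and 8.60 in ENRI, and 9.14 and 8.89 in WENRC; WENRC was highest, and its reads cannot be told from those of Fbxl14 on the other strand. The authors' deposited table calls Wnt5b lower in RANKL than in WENRC (change -0.61), which limma with 6 libraries did not (change -0.48, limma FDR 0.109). Wnt8b had 4.23 and 4.20 in RANKL, 4.10 and 4.06 in ENRI, and 4.37 and 4.28 in WENRC. Wnt9a had 3.26 and 3.32 in RANKL, 3.68 and 3.47 in ENRI, and 3.42 and 3.65 in WENRC. Both stayed within a narrow band close to the test's minimum, and neither was called.

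Wnt7a and Wnt7b, ligands of brain blood vessel growth, had their highest value in ENRI 1 alone. Wnt7b had 6.69 in ENRI 1 and 3.45 in ENRI 2, against 4.11 and 3.47 in RANKL and 3.64 and 4.36 in WENRC. Wnt7a had 6.10 in ENRI 1 and 4.26 in ENRI 2, against 4.33 and 3.82 in RANKL and 4.01 and 4.30 in WENRC. Within mouse 1, WENRC was lower than ENRI by a difference of -3.04 for Wnt7b and -2.09 for Wnt7a, and within mouse 2 the differences were 0.92 and 0.04. With 6 libraries limma called neither gene, and Wnt7b overlaps AU022754. The authors' deposited table has Wnt7b lower in RANKL than in ENRI (change -3.98, adjusted p 0.0414). Without ENRI 2, limma called both lower in RANKL than in ENRI and lower in WENRC than in ENRI.

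**Figure D2:**
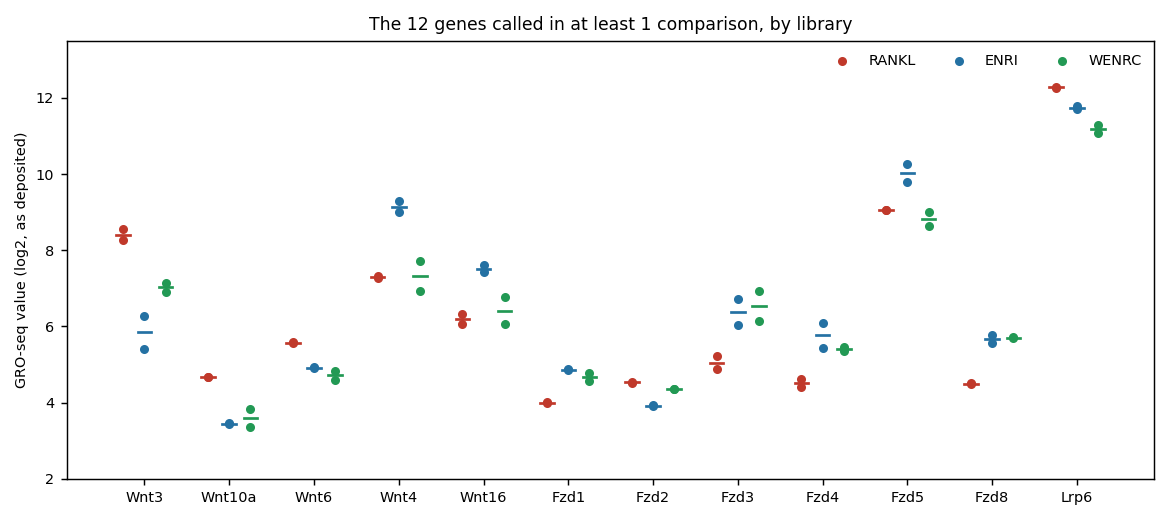
GRO-seq value (log2, as deposited) of the 12 Wnt genes called in at least 1 comparison; points are single libraries, short lines the mean of 2 libraries, colours the cultures. Wnt3 is highest in RANKL (8.55 and 8.26) and Wnt4 in ENRI (9.28 and 9.0), while Fzd8 is lowest in RANKL (4.48 and 4.51).

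To compare genes of different length, the mean value was taken per kilobase (log2 value minus log2 of gene length in kb). On that scale Wnt2b was the highest ligand in RANKL (4.34) and WENRC (4.49), and Wnt4 was the highest in ENRI (4.69), ahead of Wnt2b (4.34) and Wnt16 (4.15). Wnt3 ranked 11 of the 50 Wnt genes in RANKL (2.95 per kb), 24 in ENRI (0.39) and 23 in WENRC (1.57). The highest levels per kb in all 3 cultures were held by receptors and adaptors rather than ligands, led by Fzd5 (6.20 in RANKL, 7.18 in ENRI, 5.97 in WENRC), with Dvl1 and Fzd7 in the next places.

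The 6 ligands under the test's minimum were low in all 6 libraries. Wnt2 had 1.43 to 1.67, Wnt5a 1.65 to 1.82 and Wnt3a 2.77 to 2.99. Wnt8a had 1.03 to 1.29, Wnt1 1.48 to 1.93 and Wnt10b 2.32 to 2.60. Of 15 fibroblast and muscle markers 3 reached the test (Pdgfrb, Acta2 and Myh11), and their list mean was 2.33 to 2.50 in the 6 libraries. Acta2 had 6.98 to 8.0 and Myh11 5.94 to 6.61 over the 6 libraries. Among the untested genes of the list, Twist1 was listed at 0 in all 6 libraries, and Lum and Foxl1 had values from -1.98 to -1.96. Col1a1 had 2.13 to 2.46, and Foxf1 2.86 to 3.27. Pdgfrb, a pericyte receptor, had 9.21 and 9.26 in RANKL against 6.44 to 7.68 in the other libraries.

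Wls, which carries Wnts to the cell surface, had 9.58 and 9.46 in RANKL, 10.28 and 7.78 in ENRI, and 9.90 and 9.89 in WENRC. The ENRI libraries held both the highest and the lowest value, so cultures overlapped; WENRC was lower than ENRI in mouse 1 (-0.38) and higher in mouse 2 (2.12). With ENRI 1 left out, Wls was called higher in RANKL than in ENRI (change 1.74) and higher in WENRC than in ENRI (change 2.12). With ENRI 2 left out it was called lower in RANKL than in ENRI (change -0.76). With all 6 libraries limma did not call it, and with RANKL and WENRC alone its change of -0.38 was called (limma FDR 0.0341, up to 0.922 over its alternatives). The authors' deposited table also has Wls lower in RANKL than in WENRC (change -0.45, adjusted p 0.042).

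Among the Frizzled receptors, RANKL against ENRI had 5 of 9 tested lower and 1 higher, against 10.5% and 10.4% of all genes, with a median change of -0.87. With upper quartile or quantile scaling 4 were lower and 0 higher. In a fit of the RANKL and ENRI libraries alone, Fzd8 was the only Frizzled called, against 11.6% of all genes. The other Frizzled calls thus rest on a fit that takes part of its spread from WENRC. Against WENRC, 2 of 9 were lower and 0 higher, against 3.62% and 8.53% of all genes, with a median of -0.68. WENRC against ENRI had 1 of 9 lower, against 9.74% of all genes, with a median of 0.17. Fzd8, a receptor for Wnts of the beta-catenin branch, had 4.48 and 4.51 in RANKL, 5.57 and 5.77 in ENRI, and 5.69 and 5.72 in WENRC. RANKL was below both other cultures, which overlapped. The change was -1.17 against ENRI (SE 0.18, limma FDR 0.0113, from 0.00348 to 0.116 over its alternatives) and -1.21 against WENRC (SE 0.18, limma FDR 0.0137, from 0.00131 to 0.158). The authors' deposited table gives -3.17 and -3.23.

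Fzd3, a receptor of planar polarity, had 5.21 and 4.89 in RANKL, 6.72 and 6.03 in ENRI, and 6.15 and 6.93 in WENRC. RANKL was lowest and the other cultures overlapped. Both changes were close to the threshold, -1.33 against ENRI (SE 0.36, limma FDR 0.0485, from 0.0120 to 0.265) and -1.49 against WENRC (SE 0.36, limma FDR 0.0491, from 0.00508 to 0.306). Fzd4, the receptor for Norrin in blood vessels, had 4.63 and 4.41 in RANKL, 5.43 and 6.10 in ENRI, and 5.46 and 5.36 in WENRC. Again the RANKL pair lay below all others. The change against ENRI was -1.24 (SE 0.27, limma FDR 0.0259), and that of -0.89 against WENRC was not called (limma FDR 0.0864, and 0.0115 with only those 4 libraries).

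Fzd1, a receptor of the beta-catenin branch, had 4.01 and 3.99 in RANKL, 4.87 and 4.86 in ENRI, and 4.57 and 4.78 in WENRC. It too was lowest in RANKL, by 0.87 below ENRI on the log2 scale (change -0.87, SE 0.18, limma FDR 0.0231); the change of -0.68 against WENRC was not called (limma FDR 0.0625, and 0.0300 with only those 4 libraries). In the authors' deposited table Fzd1, Fzd4 and Fzd6 are also lower in RANKL than in WENRC at an adjusted p under 0.05.

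Fzd5, which matures Paneth cells in the crypt, set ENRI apart. It had 9.78 and 10.27 in ENRI, 9.05 and 9.05 in RANKL, and 9.0 and 8.64 in WENRC. Both ENRI libraries were above the other 4. The change was -0.98 in RANKL against ENRI (SE 0.21, limma FDR 0.0267, from 0.00169 to 0.182) and -1.21 in WENRC against ENRI (SE 0.21, limma FDR 0.0209, from 0.000928 to 0.148), -0.79 in mouse 1 and -1.63 in mouse 2.

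Fzd2 was the one Frizzled called higher in RANKL. It had 4.52 and 4.55 in RANKL, 3.93 and 3.90 in ENRI, and 4.35 and 4.35 in WENRC. ENRI was lowest and RANKL highest, without overlap. The change of 0.62 over ENRI (SE 0.17, limma FDR 0.0478, from 0.0260 to 0.261) was lost under 10 of its 12 alternatives, upper-quartile and quantile scaling among them. Fzd9 had 5.15 and 4.91 in RANKL, 4.53 and 4.17 in ENRI, and 5.05 and 4.94 in WENRC, a difference of 0.68 from ENRI that was not called (limma FDR 0.0734). Fzd7, a receptor known from intestinal stem cells, had 7.80 and 7.95 in RANKL, 7.60 and 6.98 in ENRI, and 7.88 and 7.84 in WENRC; ENRI was lowest and the gene was not called. Fzd6 ranged from 6.64 in ENRI 2 to 8.45 in WENRC 1, with ENRI 1 at 8.32, and untested Fzd10 had -0.28 to -0.18.

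The LRP co-receptors parted. Lrp6 had 12.27 and 12.29 in RANKL, 11.70 and 11.78 in ENRI, and 11.29 and 11.08 in WENRC. The cultures fell in the order RANKL, ENRI, WENRC without overlap. The change was 1.10 over WENRC (SE 0.15, limma FDR 0.00971, from 0.000482 to 0.160) and 0.54 over ENRI (SE 0.15, limma FDR 0.0483, from 0.0256 to 0.300). WENRC lay below ENRI by a change of -0.55 that the main fit did not call (limma FDR 0.0566). With the mouse number as a block in the fit of 6 libraries it was called (limma FDR 0.0436), as it was with a filter at log2 of 50. With the block in the 4 libraries alone it was not called. Lrp5 had 11.19 and 11.29 in RANKL, 11.45 and 11.06 in ENRI, and 11.40 and 11.21 in WENRC, and its cultures overlapped. The Dishevelled adaptors, which relay the signal from the receptors, were not called: Dvl1 was 8.94 to 9.61 (and overlaps Tas1r3), Dvl2 6.64 to 7.08 and Dvl3 8.53 to 8.97. The authors' deposited table has Dvl1 higher in RANKL than in WENRC (change 0.58, adjusted p 0.0270).

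No R-spondin or secreted antagonist was called in these comparisons. Rspo2 had its extremes in both ENRI and WENRC, from 3.69 in WENRC 1 to 5.28 in ENRI 2, with no order by culture. Rspo3, an R-spondin of stromal cells, had 3.42 and 3.24 in RANKL, 2.94 and 3.54 in ENRI, and 2.94 and 3.46 in WENRC. Rspo4 had 4.28 and 4.42 in RANKL, 3.94 and 4.33 in ENRI, and 4.27 and 4.35 in WENRC. For these R-spondins the cultures overlapped. Sfrp5, the one Sfrp gene tested, had 5.21 and 5.06 in RANKL, 4.38 and 4.88 in ENRI, and 4.83 and 5.02 in WENRC. Wif1 had 5.42 and 5.27 in RANKL, 4.79 and 5.05 in ENRI, and 4.83 and 5.0 in WENRC. Both were highest in RANKL in every library, but their differences were not called. Untested Sfrp1 had 1.88 to 2.44, Sfrp2 1.19 to 1.38 and Sfrp4 0.84 to 1.11.

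Among the Dickkopf antagonists, Dkk1 was untested at -1.34 to -1.31. Dkk2 had 4.31 and 4.38 in RANKL, 4.31 and 4.52 in ENRI, and 3.90 and 4.73 in WENRC. Dkk3 had 5.13 and 5.05 in RANKL, 4.84 and 5.24 in ENRI, and 4.97 and 5.19 in WENRC. Dkk4, known as a target of the pathway it inhibits, had 4.56 to 4.94 over the 6 libraries. Cultures overlapped for Dkk2 and Dkk3, and the 3 genes were not called. Kremen1, the Dickkopf co-receptor, had 8.40 and 8.33 in RANKL, 8.82 and 8.84 in ENRI, and 8.65 and 8.54 in WENRC. RANKL was lowest and ENRI highest with no overlap, but the change of -0.47 was not called (limma FDR 0.0547). Kremen2 had 3.58 to 4.15.

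**Figure D3:**
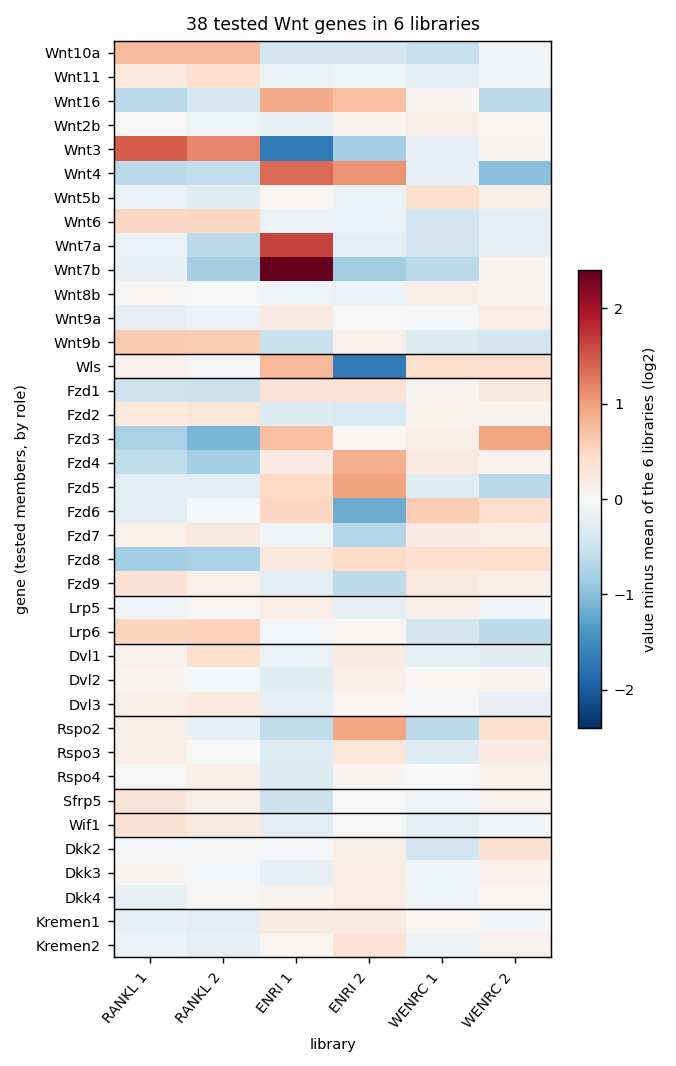
Value of each tested Wnt gene (rows, by role) in the 6 GRO-seq libraries (columns), minus the gene's mean over them, on the log2 scale. The ENRI 1 column is darkest red for Wnt7b and Wnt7a, and the ENRI 2 column darkest blue for Wls, while Wnt3, Wnt10a and Wnt6 are reddest in the RANKL columns.

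Genes that act with these ligands were read from 4 lists. Of 19 tested Wnt target genes, 7 were higher and 1 lower in RANKL than in ENRI, 2 higher and 2 lower than in WENRC, and 9 higher in WENRC than in ENRI (medians 0.89, -0.06 and 1.22). Lgr5, Axin2, Ascl2, Sox9, Tnfrsf19 and Smoc2 of this list are also among the stem cell markers above, so the counts of these lists are not separate. Axin2, the feedback scaffold of the destruction complex, changed by 3.12 in RANKL and 2.95 in WENRC over ENRI, with values of 11.93 and 12.08 in RANKL, 9.14 and 8.62 in ENRI, and 11.64 and 12.02 in WENRC. Lgr5, the R-spondin receptor of stem cells, was 3.02 lower in RANKL than in WENRC on the log2 scale (change -3.02) and was higher in WENRC than in ENRI by 3.12. Tnfrsf19, a stem cell receptor, was highest in RANKL (10.89 and 10.89), changing by 4.58 over ENRI and 1.69 over WENRC, and Sp5, a target transcription factor, fell by 1.66 against ENRI and by 1.42 against WENRC.

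Of 25 tested genes of the destruction complex and the nuclear partners of beta-catenin, 6 were higher and 0 lower in RANKL than in ENRI, and 4 higher and 0 lower than in WENRC. Tle3, a co-repressor of TCF factors, changed by 1.48 and 1.33, and Btrc, which marks beta-catenin for destruction, by 1.32 and 1.34. With the other scalings 1 gene of this list was lower in RANKL than in WENRC, and with quantile scaling the target list had 2 higher and 4 lower there. Of 20 planar polarity and beta-catenin-independent genes, 7 were higher and 1 lower in RANKL than in ENRI, and 5 higher and 0 lower than in WENRC. Celsr1, a planar polarity cadherin, changed by 2.40 and 2.68, and Celsr3 by 4.37 over WENRC. Of 16 tested surface regulators, 3 were higher and 2 lower in RANKL than in ENRI, and 1 higher and 2 lower than in WENRC. Sost, a secreted LRP antagonist, had 4.95 and 5.12 in RANKL and 2.92 to 2.96 in the other 4 libraries, a change of 2.10 over ENRI. Those 4 values are under the test's minimum. Sost thus entered the test only through the RANKL libraries, where it was high, and its calls are no separate support. Znrf3, a ligase that removes Frizzled from the surface, changed by 1.71 over ENRI, and Ror2, a Wnt co-receptor, by -1.14 over ENRI and -1.33 over WENRC. Among 16563 genes 10.4% were higher and 10.5% lower in RANKL than in ENRI, 8.53% higher and 3.62% lower than in WENRC, and 4.85% higher and 9.74% lower in WENRC than in ENRI. In WENRC against ENRI the destruction complex list had 1 higher and 1 lower, the planar polarity list 0 higher and 2 lower, and the surface regulators 2 higher and 0 lower. Lgr5, Axin2, Rnf43, Znrf3 and Notum stand in 2 of the lists.

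H3K27me3 was compared between RANKL and WENRC from the authors' regions, each culture called with the other as control, on mm9. With 1 pooled RANKL sample (32.7 M tags) and 1 WENRC library (36.3 M tags) there is no replicate check. Starts here are the nearest annotated ones, which can differ from the start of the GRO-seq gene, as at Dkk3 and Wnt5a. RANKL-higher regions centred within 5 kb of the start were found at 32 of the 50 Wnt genes (64.0%), against 19.1% of all genes, and WENRC-higher regions at 7 (14.0%), against 5.44%. At 5 genes (Dkk2, Rspo4, Wnt2, Wnt3 and Wnt7a) both kinds were found and at 16 neither. RANKL-higher regions were found at 15 of 19 ligands, 7 of 10 Frizzled genes, 3 of 4 Sfrp, 3 of 4 Dkk and 2 of 4 R-spondin genes, Lrp5 and Wif1. None was found within that window at Lrp6, Wls, the 3 Dishevelled or the 2 Kremen genes. The 60 RANKL-higher regions had folds of 2.01 to 5.83, with a median of 2.46, against 2.71 for all regions near starts. The authors' regions had folds of at least 2.0 as deposited, so the lower end was set by that selection. With a window of 1 kb the RANKL-higher regions reached 24 Wnt genes, against 10.5% of all genes, and the WENRC-higher ones 2 (Dkk2 and Wnt7a), against 1.24%. At any distance they reached 38 and 23 Wnt genes, against 33.7% and 24.0% of all genes. At a fold of at least 4 they reached 1 each, Wnt5a against 3.04% of all genes and Wnt8a against 1.37%. Of the 60 regions 16 spanned the start of 16 genes, and 0 of the 8 WENRC-higher regions did.

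**Figure D4:**
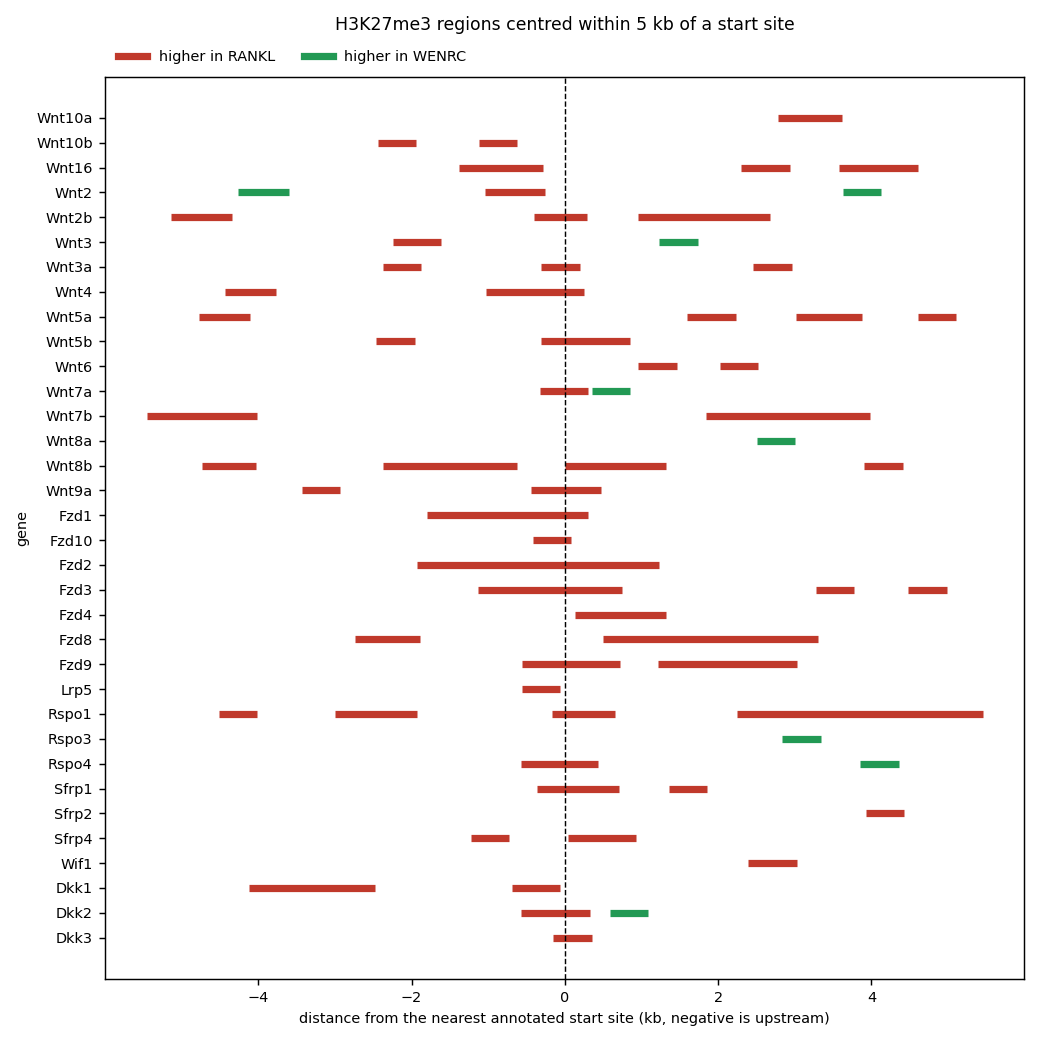
H3K27me3 regions centred within 5 kb of the nearest annotated start of a Wnt gene (bars, to scale), by distance from that start in kb. Red marks regions higher in RANKL and green those higher in WENRC. Red bars cross the start at Wnt4, Fzd1, Fzd2, Fzd3 and others (16 genes), and no green bar does.

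The receptors held the longest stretches over a start. At Fzd1 the region at chr5:4757919-4760019, from -1803 to 297 bases relative to the start, had 96 RANKL tags and 27 scaled WENRC tags, a fold of 3.55 (95% counting interval 2.34 to 5.55). The Fzd2 region at chr11:102463822-102466978 had 166 and 50.4 tags, a fold of 3.29 (2.42 to 4.54), and the Fzd3 region at chr14:65880554-65882432 had 125 and 42.3 tags, a fold of 2.95 (2.10 to 4.23). Intervals cover counting error only. These receptors differed in GRO-seq: Fzd3 fell in RANKL against WENRC, Fzd1 did not pass the test (-0.68), and Fzd2 had 4.52 and 4.55 in RANKL and 4.35 and 4.35 in WENRC. Fzd8 had 2 RANKL-higher regions within the window, the longer with 113 and 45 tags, a fold of 2.51 (1.78 to 3.58) inside its single exon. Fzd9 (81 and 24.3 tags over the start, a fold of 3.33), Fzd4 (83 and 40.5 tags, 2.05) and Fzd10 (26 and 9 tags, 2.89) complete the Frizzled genes with a region.

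Among the ligands, Wnt4 had a RANKL-higher region across its start at chr4:136832522-136833806, from -1028 to 256 bases relative to the start, with 113 and 34.2 tags and a fold of 3.30 (2.27 to 4.91). Its GRO-seq values in RANKL (7.26 and 7.33) lay between those of WENRC (7.71 and 6.92). Wnt3 had regions of both kinds. The one upstream (chr11:103633242-103633874, intergenic, centred at -1931 bases from the start) was RANKL-higher, with 43 and 15.3 tags and a fold of 2.81 (1.57 to 5.26). The one in intron 1 (chr11:103636723-103637223) was WENRC-higher, with 15 RANKL and 33.3 WENRC tags and a fold of 2.22 (1.19 to 4.35). Wnt7a likewise had a RANKL-higher region over its start (58 and 21.6 tags, 2.68) and a WENRC-higher one in intron 1 (25 RANKL and 57.6 WENRC tags, 2.30).

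Wnt10a and Wnt6, both above WENRC in RANKL by the test, also held RANKL-higher regions, within the gene rather than over the start. They lay for Wnt10a in intron 2 (62 and 23.4 tags, a fold of 2.65, 1.65 to 4.36) and for Wnt6 in intron 1 (41 and 18.9 tags, 2.17, and 31 and 10.8 tags, 2.87). Wnt5b had 127 and 39.6 tags over its start, a fold of 3.21 (2.26 to 4.63). The untested Rspo1, an R-spondin with GRO-seq values of 1.77 to 2.23, had the longest region, 3206 bp in intron 1 with 282 and 127.8 tags and a fold of 2.21 (1.80 to 2.72). The highest RANKL fold was at untested Wnt5a, with 21 and 3.6 tags and a fold of 5.83 (1.97 to 23.4), and the highest WENRC fold at untested Wnt8a, with 3 RANKL and 16.2 WENRC tags and a fold of 5.40 (1.58 to 28.6). Lrp5, the co-receptor, had a region upstream of its start (22 and 7.2 tags, 3.05). Wnt16 had 3 regions, the nearest upstream of the start (63 and 24.3 tags, 2.59). In GRO-seq Wnt16 was not called in RANKL against WENRC (change -0.23). Over the starts of Wnt2b (85 and 41.4 tags, 2.05), Wnt3a (51 and 20.7 tags, 2.46), Wnt9a (91 and 31.5 tags, 2.89) and Rspo4 (73 and 24.3 tags, 3.0) the mark was also higher in RANKL. The antagonists Sfrp1 (107 and 47.7 tags over the start, 2.24) and Dkk1 (86 and 27.9 tags upstream, 3.08) were also among the 32. So was Dkk3 (28 and 10.8 tags, 2.59), with its region over an annotated start other than that of the GRO-seq gene.

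Set beside GRO-seq, the 22 of 38 tested Wnt genes with a RANKL-higher region (18.0% of all tested genes had one) showed changes in RANKL against WENRC above 0 for 9 and below 0 for 13, with a median of -0.07. Of these, 3 were called higher (Wnt3, Wnt6 and Wnt10a) and 2 lower (Fzd3 and Fzd8). The 16 tested genes without one had 10 above and 6 below 0, with a median of 0.12, and Lrp6 was called higher. A WENRC-higher region lay near 5 of the 38, against 5.01% of all tested genes, and Wnt3 was the one of them called. The 32 genes with a RANKL-higher region had a median value of 4.35 in RANKL and 4.32 in WENRC, and the 18 without had 6.20 and 5.95.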

How the data were processed

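Mouse duodenal organoids gave 6 GRO-seq libraries (2 each of RANKL, ENRI and WENRC) and H3K27me3 ChIP-seq of RANKL and WENRC. GRO-seq values were deposited as log2 values. HOMER counted reads over whole RefSeq genes of mm9 for the authors, per the file headers; the shape of a regularized logarithm was inferred from the values, and strand handling is not given in the sources used here, so overlapping genes cannot be told apart. GRO-seq depth is unknown. The submitters' processing notes name Bowtie2 2.3.4.1, HOMER and DESeq2. The authors' log2 fold changes and adjusted p-values, as deposited, were turned to first-named minus second-named culture. For H3K27me3, the authors' RANKL tags are whole counts as deposited, the WENRC tags a signal scaled by 0.9 by the authors with a floor of 0.5, the fold a ratio of the deposited tags, and the deposited p-value at most 9.87e-05. The deposited fold is at least 2.0, so the folds and counting intervals are those of regions already selected.

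limma 3.58.1 in R 4.3.3 (variance trend, all 6 libraries, 3 group means, no block, no pseudocount) was run on the 16563 genes at or above log2 of 10 in at least 2 libraries, with two-sided Benjamini-Hochberg adjustment; 2131 genes at 0 in every library were among those left out. The fit was tested on simulated data. Mouse numbers pair ENRI with WENRC per the labels (r of replicate differences 0.41 across genes), and RANKL numbers pair with neither (-0.20 and -0.32). Alternatives were other libraries, scalings, filters, weights, the block (mouse number of ENRI and WENRC, RANKL at 0) and the authors' table. Counting intervals are 95% Clopper-Pearson. Every Wnt gene is given. Those called have the value of every library, as have tested ones with a region within 5 kb; the others are given by library or by range. Genes of the lists are named by p, up to 5 a list. Members and lists were chosen with earlier results of these data known, so no pattern counts as independent support. Errors of gene values are given as the 2 library values.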

Additional observations from a re-analysis of the deposited data

How the results depend on the processing

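No Wnt gene called in a comparison changed direction under an alternative. Of the 19 calls, 19 held with the replicate block, 17 in the authors' deposited table, 11 with only the 4 libraries compared, 5 without WENRC 1 or 2, and 0 without RANKL 1 or 2, where a lone RANKL library is assumed to vary like the other cultures. The Wnt genes called in RANKL against ENRI (11) became 5 with only the 4 libraries compared and 0 to 16 with 1 library left out. In RANKL against WENRC (6) they became 13 with only the 4 libraries, 3 with upper quartile recentring, 12 with array weights, 13 in the authors' deposited table and 0 to 13 with 1 library left out. In WENRC against ENRI (2) they became 0 with only the 4 libraries, 0 when the block was added to these, 5 with the replicate block over 6 libraries, 5 with a filter at log2 of 50, and 0 to 10 with 1 library left out. With the replicate block, 14, 8 and 5 Wnt genes were called in the 3 comparisons; Wnt6, Wnt9b and Fzd9 joined in RANKL against ENRI, and Wnt9b and Fzd1 in RANKL against WENRC.

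Over all genes, 3464 calls in RANKL against ENRI became 1925 with only the 4 libraries and 64 to 6966 with 1 library left out. In RANKL against WENRC, 2012 became 5194 with only the 4 libraries, 5122 with array weights, 4604 in the authors' deposited table and 0 to 5176 with 1 library left out. In WENRC against ENRI, 2416 became 0 with only the 4 libraries, 124 when the block was added to these, 1580 with array weights and 0 to 6650 with 1 library left out; upper quartile recentring moved its all-gene median to 0.10 and its calls from 33.2% to 54.1% higher. The replicate block gave 4749, 2945 and 3545 calls. The median change of tested Wnt genes moved to -0.12 in RANKL against WENRC and 0.07 in WENRC against ENRI with upper quartile recentring, and with 1 library left out ran from -0.03 to 0.13, -0.05 to 0.05 and -0.14 to 0.08. Wnt genes with a RANKL-higher region were 1 at a fold of at least 4, and those with a WENRC-higher region were 2 within 1 kb, 23 at any distance and 1 at a fold of at least 4. The cause of these shifts was not tested.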
